A study of Mus musculus with 14 samples.

Results

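Independent and dependent T-cell leukaemias were compared in the absence of doxycycline (Dox), the state in which neither group had received the drug. The members were chosen by their class label and by the absence of Dox. The 3 independent tumours were VTL-44, VTL-33 and VTL-81, the 2 dependent tumours were VTL-24 and VTL-19, each had 1 library, and together they make up 5 of the 14 libraries of the series. The data are RNA sequencing of the VTL mouse model of T-cell acute lymphoblastic leukaemia (T-ALL), a disease induced there by the oncogene Lmo2. The other 9 libraries were the evolving tumours VTL-153, VTL-25, VTL-21 with and without Dox, and the 3 independent tumours with Dox. Dox was given in food at 600 mg/kg.

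All 5 tumours arose from thymocytes placed in C57BL/6-Ly5.1;FVB F1 recipients that had been irradiated below a lethal dose, per the labels' protocols. Each frozen leukaemia was then passed into Rag1-/- C57BL/6 mice, which lack T and B cells of their own but keep myeloid, NK and stromal cells. Spleen cells carrying CD45.1 together with CD45.2 were sorted as tumour. Each library is thus 1 transplanted leukaemia, and the labels do not say how many recipients went into it. What drives the Lmo2 transgene is not given in the sources used here.

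Lmo2 is a small LIM-domain adaptor that binds no DNA itself. It joins a class of helix-loop-helix factors (Tal1 or Lyl1 with an E protein such as Tcf3 or Tcf12), GATA factors and Ldb1 into a complex at E boxes and GATA sites, and in blood progenitors this complex holds a stem-cell-like programme. Normal thymocytes shut Lmo2 off as they commit to the T lineage. When it stays on, committed cells keep progenitor genes such as Hhex and Lyl1, and leukaemia can follow.

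The 5 libraries held between 18753251 and 23202839 counts over the listed genes, and mitochondrial genes took 1.62% to 4.92% of the counts in the independent tumours and 2.63% and 4.73% in the dependent ones. Cd3e, a chain of the T-cell receptor complex, was present in every library, at 194, 409 and 486 CPM (library-scaled counts) in the independent tumours, against 234 and 325 CPM in the dependent tumours. Independent values are always in the order VTL-44, VTL-33, VTL-81 and dependent values in the order VTL-24, VTL-19. Across genes, log2 CPM correlated at 0.869 to 0.919 among the independent tumours, at 0.903 between the dependent ones, and at 0.839 to 0.885 between the groups. The evolving libraries VTL-153 and VTL-25 without Dox correlated at 0.973, and 3 genes exceeded 20 CPM in one of them while staying under 0.5 CPM in its counterpart, against 21 to 130 such genes in every other pair without Dox. The leading T-cell receptor beta segment of VTL-25 was Trbv24 (238 CPM) without Dox, as in VTL-153 and VTL-21, but Trbv5 (270 CPM) with Dox. The evolving libraries without Dox enter only the estimate of spread, and each was left out in turn.

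Which genes distinguish tumours that no longer need Lmo2 from those that do, before any drug is given, is the question this comparison addresses. Of 12348 genes tested, 12 (0.0972%) passed an adjusted p of 0.05 in edgeR's quasi-likelihood test. Of these, 2 (0.0162%) were higher in the independent tumours, Foxb1 and Arhgef3, and 10 (0.081%) were lower, Armcx4, Armcx1, Sstr2, Pcdh7, Fat4, P2rx7, 1500035N22Rik, Abcb10, Npc1 and Ube2w. The lower genes include armadillo-repeat genes of the X chromosome, cadherin-related adhesion genes, receptors of the cell surface and a cholesterol exporter. The 12 kept their direction under all 17 alternatives, but the count did not hold: DESeq2 called 791 of 12227 (6.47%; 361 or 2.95% higher, 430 or 3.52% lower), limma voom called 0, and a fit of the 5 libraries alone called 2, of which Sstr2 was the 1 among the 12. Without VTL-44 the count was 73, the 12 among them, and without VTL-81 it was 23. Without the evolving VTL-153, by contrast, it was 2 (Armcx4 and Sstr2), and without the evolving VTL-25 it was 5. Without VTL-33 it was 10, of which 5 were among the 12 (Armcx4, Armcx1, Sstr2, Foxb1 and Pcdh7). In bulk samples, fewer cells of a type and less RNA per cell cannot be told apart.

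Many more genes separated the 5 libraries than passed the test. The groups did not overlap in CPM for 1781 genes that were higher in all 3 independent tumours (14.4% of genes tested) and for 1635 that were lower (13.2%), 27.7% in all. Of these, 289 (2.34%) were at least 8-fold higher and 137 (1.11%) at least 8-fold lower. The unadjusted p was under 0.05 for 1631 genes (13.2%). The number with an adjusted p below 0.06 was 30, and below 0.1 it was 121, of which 27 were higher and 94 lower. Log2 differences below are independent minus dependent, with an approximate SE that is the size of the difference over the square root of the test's F statistic and that is inexact where a group holds few counts. Adjusted p are edgeR's, with Benjamini-Hochberg adjustment over all genes tested.

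**Figure D1:**
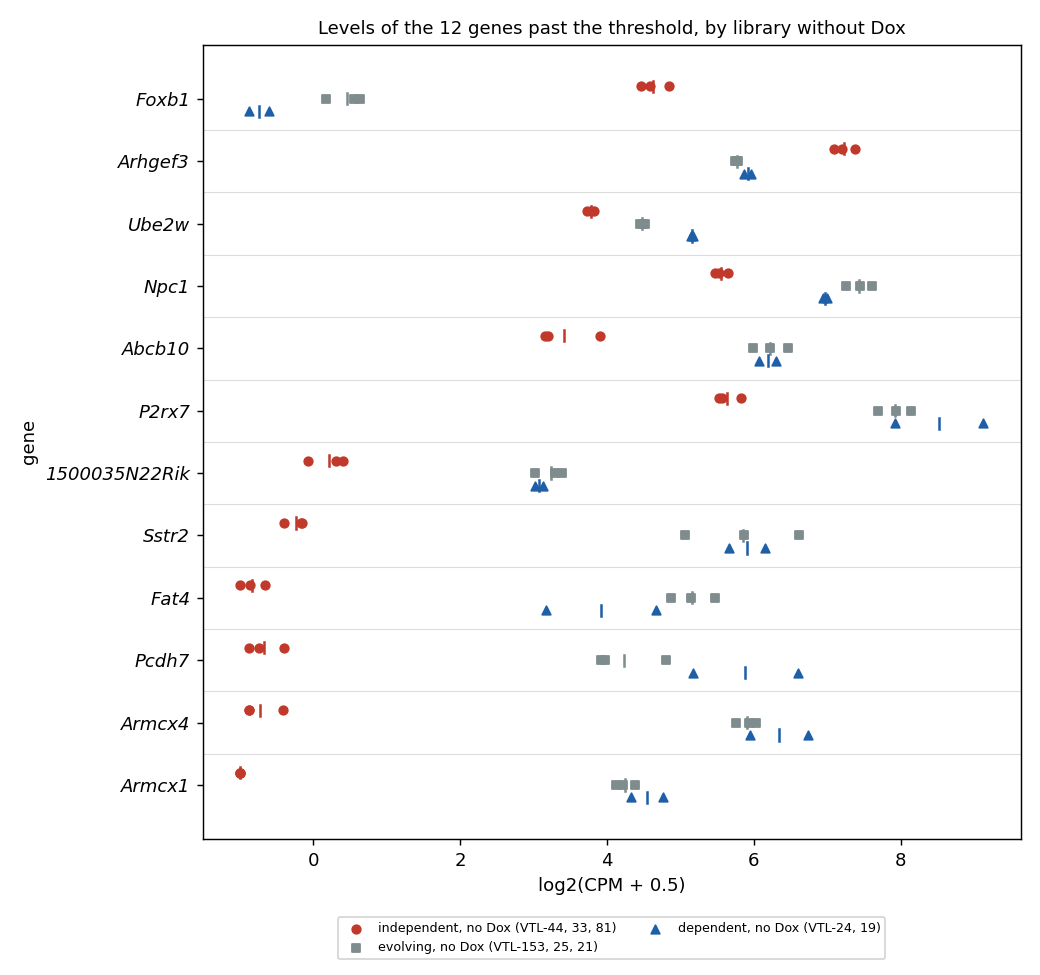
Level of each of the 12 genes past the threshold, as log2(CPM + 0.5) on the horizontal axis, in the 8 libraries without Dox. Circles are the 3 independent tumours, squares the 3 evolving tumours and triangles the 2 dependent tumours, with a bar at each mean. Foxb1 and Arhgef3 lie to the right in the independent tumours and the other 10 genes to the left, with no overlap between circles and triangles.

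Armadillo genes of the X chromosome had the largest fold differences of the 12 called genes. Armcx4 (ENSMUSG00000049804, X, 134686519 to 134696757 on mm10) and Armcx1 (ENSMUSG00000033460, X, 134717963 to 134721917) lie 21206 bases apart and encode armadillo-repeat proteins, and Armcx1 protein sits on mitochondria and promotes their transport in neurons. Armcx4 stood at 0.248, 0.0434 and 0.0431 CPM in the independent tumours, against 107 and 61.0 CPM in the dependent tumours, a log2 difference of −9.54 (SE 0.58, adjusted p = 0.00598). Armcx1 had 0 counts in each of the 3 independent tumours, against 19.5 and 26.6 CPM in the dependent tumours. With a floor of 3 counts over the group it was at least 506-fold lower (adjusted p = 0.00659). Armcx4 and Armcx1 passed the test with any 1 of the 3 independent tumours left out. In the 5 libraries alone neither passed (adjusted p = 0.102 for Armcx4 and 0.184 for Armcx1), and Armcx1 had an adjusted p of 0.0517 without the evolving VTL-153.

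The 3 other armadillo genes of this stretch, which ends at base 134809221, were also lower without overlap but did not pass. Armcx6 stood at 0.546, 0.0434 and 0 CPM in the independent tumours, against 8.42 and 5.26 CPM in the dependent tumours (log2 −5.11, SE 1.29, adjusted p = 0.175). Armcx3, whose protein also acts in mitochondrial transport, stood at 0.794, 0 and 0.216 CPM, against 5.66 and 8.09 CPM (log2 −4.35, SE 1.18, adjusted p = 0.192). Armcx2 stood at 3.92, 0.0434 and 0.129 CPM, against 66.4 and 63.8 CPM (log2 −5.59, SE 1.37, adjusted p = 0.172). All 5 genes were thus below the dependent tumours in every independent tumour, and VTL-44 held the highest values of Armcx2, Armcx3, Armcx4 and Armcx6 among the 3. Armcx5, a further member of the family that starts at base 135742733 of the same chromosome, stood at 8.04, 10.9 and 11.5 CPM, against 10.2 and 10.6 CPM (log2 −0.03, SE 0.34, adjusted p = 0.980). Hnrnph2, an RNA-binding protein gene on the other side of Armcx4, had a log2 difference of −0.35 (SE 0.14, adjusted p = 0.368). Xist, the RNA of the inactive X, stood at 1909, 4.34 and 8.80 CPM in the independent tumours, against 2964 and 1171 CPM in the dependent tumours. The sex-linked list, Xist included, had 5 genes tested and 0 called. It summed to 1927, 4.39 and 255 CPM in the independent tumours, against 2965 and 1174 CPM in the dependent tumours. Any link between Xist or sex and the Armcx genes, or the other differences reported, was not tested.

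The upstream sequences of these neighbours are shown because the genes lie side by side and were low together, and because the Lmo2 complex is known to bind E boxes and GATA sites. Each is the 250 bases before the start of the gene in RefSeq (GRCm38.p6), 5′ to 3′ on the gene's strand, with matches to CANNTG and to GATAA on either strand in capitals.
Armcx4 (chrX:134686269-134686518, plus strand): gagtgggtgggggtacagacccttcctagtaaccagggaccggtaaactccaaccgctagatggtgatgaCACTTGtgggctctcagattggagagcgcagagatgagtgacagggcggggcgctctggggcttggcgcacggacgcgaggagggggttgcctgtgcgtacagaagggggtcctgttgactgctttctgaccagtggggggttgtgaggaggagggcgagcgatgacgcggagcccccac
Armcx1 (chrX:134717688-134717937, plus strand): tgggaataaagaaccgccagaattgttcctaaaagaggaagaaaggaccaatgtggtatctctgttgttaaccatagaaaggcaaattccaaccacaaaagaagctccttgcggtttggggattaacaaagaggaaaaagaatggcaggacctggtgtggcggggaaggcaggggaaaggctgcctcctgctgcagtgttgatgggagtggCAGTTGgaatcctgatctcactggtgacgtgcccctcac
Armcx6 (chrX:134751420-134751669, minus strand): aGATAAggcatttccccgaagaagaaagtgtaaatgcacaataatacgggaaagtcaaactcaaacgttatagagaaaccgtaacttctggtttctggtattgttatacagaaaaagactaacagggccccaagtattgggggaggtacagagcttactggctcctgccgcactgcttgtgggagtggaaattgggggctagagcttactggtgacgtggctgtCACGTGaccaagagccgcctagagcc
Each of the 3 windows held 1 CANNTG match, and the Armcx6 window also held 1 GATAA match. Of 32841 RefSeq windows of this length, 66.2% held CANNTG, 22.6% held GATAA and 15.9% held both. The matches are therefore common letters, described here and not read as sites.

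Foxb1 (ENSMUSG00000059246, chromosome 9, 69757710 to 69760940) encodes a forkhead transcription factor of the developing hypothalamus and is not a known T-cell gene. It stood at 23.4, 21.6 and 28.2 CPM in the independent tumours, against 0.0468 and 0.158 CPM in the dependent tumours. The 3 independent values lie close together, and the log2 difference was 7.85 (SE 0.61, adjusted p = 0.00851). Foxb1 did not pass in the 5 libraries alone (adjusted p = 0.102), without the evolving VTL-153 (0.0512) or by limma voom over all 14 libraries with tumour as a replicate block (0.408). The non-coding gene B230323A14Rik overlaps Foxb1 over 2200 bases and stood at 8.24, 8.82 and 8.36 CPM in the independent tumours, against 0.234 and 0.21 CPM in the dependent tumours (log2 5.22, SE 0.64, adjusted p = 0.0548). Whether the counting used strand is not given in the sources used here, so reads of these overlapping genes cannot be told apart.

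The other gene that rose, Arhgef3, encodes an exchange factor that activates the small GTPases RhoA and RhoB. Arhgef3 (ENSMUSG00000021895, chromosome 14, 27114899 to 27403911) stood at 136, 167 and 147 CPM in the independent tumours, against 62.1 and 58.1 CPM in the dependent tumours. Its means were 150 ± 15.6 CPM (SD, n = 3) and 60.1 ± 2.80 CPM (SD, n = 2), and its log2 difference was 1.32 (SE 0.13, adjusted p = 0.0252). The change was modest beside that of Foxb1 but larger than the spread in either group.

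Among the genes of the cell surface that fell were a pair of receptors. Sstr2 (ENSMUSG00000047904, chromosome 11, 113619342 to 113626028), a G protein-coupled receptor for somatostatin, stood at 0.397, 0.391 and 0.259 CPM in the independent tumours, against 50.4 and 70.4 CPM in the dependent tumours. Its log2 difference was −7.42 (SE 0.54, adjusted p = 0.00698), and it passed with any 1 of VTL-44, VTL-33 and VTL-81 left out. With the replicate block, however, its adjusted p was 0.0947. Sstr2 overlaps Slc39a11 (log2 −1.29, SE 0.30, adjusted p = 0.155), and reads of the overlapping genes may be shared. P2rx7 (ENSMUSG00000029468, chromosome 5, 122643911 to 122691432) encodes an ion channel opened by extracellular ATP that can kill T cells. It stood at 56.1, 45.7 and 47.0 CPM in the independent tumours, against 559 and 243 CPM in the dependent tumours (log2 −3.01, SE 0.34, adjusted p = 0.0343). The independent tumours were tightly grouped for P2rx7 and the dependent ones were not.

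Pcdh7 and Fat4, a pair of genes of the cadherin superfamily, fell in the independent tumours. Pcdh7 (ENSMUSG00000029108, chromosome 5, 57717967 to 58133230), a protocadherin, stood at 0.0993, 0.261 and 0.0431 CPM in the independent tumours, against 96.4 and 35.6 CPM in the dependent tumours (log2 −8.87, SE 0.76, adjusted p = 0.0142). Fat4 (ENSMUSG00000046743, chromosome 3, 38886940 to 39011985), a giant atypical cadherin of planar cell polarity, stood at 0.0496, 0.13 and 0 CPM, against 8.51 and 24.9 CPM (log2 −7.98, SE 0.83, adjusted p = 0.0289). With the replicate block the adjusted p was 0.138 for Pcdh7 and 0.289 for Fat4. Pcdh7 was 1 of 15 adhesion and protocadherin genes tested and the only one of them called. In that list 4 genes (26.7%) were higher without overlap and 3 (20%) lower, beside 14.4% and 13.2% of all genes tested. The difference was positive for 10 (66.7%), beside 53.1% of all genes, and the median was 0.37, beside 0.03. Mdga1, which encodes a membrane-anchored adhesion protein of neurons, had 0.199, 0.261 and 0.259 CPM in the independent tumours, against 13.7 and 255 CPM in the dependent tumours (log2 −9.09, SE 1.49, adjusted p = 0.0721). On the other side, the laminin receptor subunit Itga6 had 178, 118 and 132 CPM, against 22.2 and 48.9 CPM (log2 2.00, SE 0.46, adjusted p = 0.151), Itga9, an integrin subunit for tenascin, had a log2 difference of 2.13 (SE 0.43, adjusted p = 0.116), and Sdc1, a heparan sulphate proteoglycan, one of 3.21 (SE 0.87, adjusted p = 0.192).

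Npc1, Abcb10, Ube2w and 1500035N22Rik also fell. Npc1 (ENSMUSG00000024413, chromosome 18, 12189692 to 12236400) carries cholesterol out of lysosomes. It stood at 49.9, 44.1 and 45.4 CPM in the independent tumours, against 123 and 127 CPM in the dependent tumours (log2 −1.43, SE 0.14, adjusted p = 0.0251), with replicate SDs of 3.04 and 2.62 CPM. Npc1 overlaps 3110002H16Rik over 966 bases (log2 −0.46, SE 0.18, adjusted p = 0.357), and reads there may be shared. Abcb10 (ENSMUSG00000031974, chromosome 8, 123952459 to 123983122), a transporter of the inner mitochondrial membrane that is induced as red cells make haem, stood at 14.4, 8.43 and 8.67 CPM, against 78.6 and 67.1 CPM (log2 −2.79, SE 0.27, adjusted p = 0.0251). Ube2w (ENSMUSG00000025939, chromosome 1, 16540790 to 16619489), a ubiquitin-conjugating enzyme, stood at 13.3, 12.8 and 13.7 CPM, against 34.8 and 35.5 CPM (log2 −1.41, SE 0.15, adjusted p = 0.0331). The long non-coding RNA 1500035N22Rik (ENSMUSG00000059631, chromosome 5, 24985842 to 24998168) had 0.447, 0.738 and 0.819 CPM, against 7.57 and 8.25 CPM (log2 −3.55, SE 0.39, adjusted p = 0.0332). It lies within Prkag2, a regulatory subunit of the energy sensor AMPK, whose log2 difference was −1.87 (SE 0.32, adjusted p = 0.0762), and reads of the overlapping genes may be shared. With the replicate block the adjusted p was 0.0937 for both Abcb10 and 1500035N22Rik.

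A set of genes with higher values in the independent tumours lay just beyond the threshold. Of the 30 genes with an adjusted p below 0.06, the 12 called included, 9 were higher and 21 lower. Malt1, the protease of T-cell receptor signalling to NF-kB, had 55.5, 47.1 and 45.7 CPM in the independent tumours, against 18.1 and 19.8 CPM in the dependent tumours (log2 1.39, SE 0.17, adjusted p = 0.0548). Elk3, an ETS factor, had a log2 difference of 1.29 (SE 0.17, adjusted p = 0.0548), and Bcl9l, a coactivator of beta-catenin, one of 1.53 (SE 0.20, adjusted p = 0.0550). Timp2, an inhibitor of matrix metalloproteinases, had 142, 155 and 83.2 CPM, against 28.2 and 20 CPM (log2 2.40, SE 0.33, adjusted p = 0.0587). Cpsf4l, named for its likeness to a polyadenylation factor, had 45.9, 37.2 and 102 CPM, against 1.4 and 1.21 CPM (log2 5.56, SE 0.70, adjusted p = 0.0548). For each of these 5 genes the groups did not overlap. On the lower side at this margin, Osbpl1a, an oxysterol-binding protein encoded 518914 bases from Npc1, had 1.39, 0.608 and 0.561 CPM, against 16.2 and 70.6 CPM (log2 −5.67, SE 0.71, adjusted p = 0.0548).

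The 12 called genes were then read in tumours that the contrast had not used. In the evolving tumours they can be set side by side with and without Dox, and Lmo2 itself stood there at 0.405, 0.198 and 3.24 CPM with Dox, in the order VTL-153, VTL-25, VTL-21, against 708, 515 and 303 CPM without Dox. All 12 differed between evolving tumours with and without Dox in the direction in which independent differed from dependent tumours, with no overlap, against 15.8% of all genes tested and 27.7% of the genes whose independent and dependent values did not overlap. Without VTL-25, whose libraries with and without Dox lead with different receptor segments, it was again all 12, against 28.4% and 42.1%. Armcx4 stood at 0, 0.446 and 0.295 CPM in evolving tumours with Dox, against 53.7, 60.5 and 64.9 CPM without Dox. Foxb1 stood at 22.1, 39.9 and 10.4 CPM with Dox, against 1.05, 0.962 and 0.629 CPM without. Npc1 stood at 37.7, 32.3 and 52.3 CPM with Dox, against 152, 195 and 174 CPM without. Of the 12, Ube2w differed least, at 14.6, 15.1 and 15.7 CPM with Dox, against 21.9, 21.3 and 22.4 CPM without. The evolving libraries without Dox also entered the estimate of spread, which favours genes that vary little among them, and this count is a description with no test.

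By level as well as by direction, evolving tumours without Dox resembled dependent tumours at these genes. For 11 of the 12 genes, all 3 evolving libraries without Dox lay on the dependent side of the midpoint between the group means of log2(CPM + 0.5), against 32.3% of all genes tested and 42.1% of the non-overlapping genes. Ube2w was the exception. With Dox, all 3 evolving libraries lay on the independent side for 8 of the 12, against 24% and 32.7%. Independent tumours given Dox stayed on the independent side at all 12 genes in all 3 tumours, against 25.9% of all genes and 44.7% of the non-overlapping ones, but they are the same tumours as those compared. Over all 12348 genes, the difference between independent and dependent tumours and the difference between evolving tumours with and without Dox correlated at r = 0.593 (rho 0.479), and 66.5% of genes had the same sign, with r = 0.584 without VTL-25. These points are genes, which are not independent, and the 2 differences share no library.

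**Figure D2:**
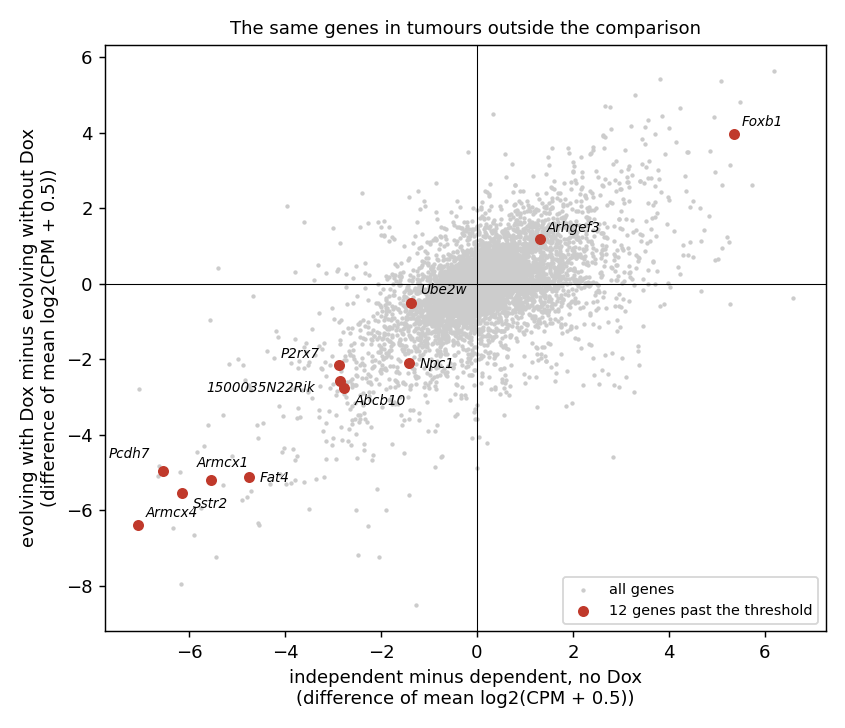
Each point is a gene. The horizontal axis is the difference between independent and dependent tumours without Dox and the vertical axis the difference between evolving tumours with and without Dox, both of mean log2(CPM + 0.5). The 12 called genes, in red, all lie in the lower left or upper right corner, and the grey cloud of all genes leans the same way with r = 0.593.

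Lmo2 itself (ENSMUSG00000032698, chromosome 2, 103957986 to 103981878) did not separate the groups. It stood at 9.28, 600 and 27.2 CPM in the independent tumours, against 142 and 120 CPM in the dependent tumours. VTL-44 and VTL-81 lay below the dependent tumours and VTL-33 above them. The log2 difference was 0.70 (SE 1.47, adjusted p = 0.876), and it turned to −2.84 without VTL-33 and to −1.25 by limma voom. Counts per gene do not separate the Lmo2 transgene from the mouse's own gene.

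Partners of Lmo2 differed from one another. Of 13 genes of the complex tested, 0 passed in either direction, with a median log2 difference of −0.09 beside 0.03 for all genes tested. Without overlap, 3 (23.1%) were lower and 1 (7.69%) higher, beside 13.2% and 14.4% of all genes tested. Lyl1, the helix-loop-helix partner, had 10.6, 3.30 and 2.41 CPM in the independent tumours, against 103 and 59.6 CPM in the dependent tumours (log2 −3.90, SE 0.67, adjusted p = 0.0789). The independent tumours, VTL-33 with its high Lmo2 included, were all below the dependent ones. Tal1, the related partner, was scarcely detected, at 1.59, 0.0434 and 0.474 CPM, against 0 and 0.105 CPM. It held 44 counts over the independent and 2 over the dependent tumours, a ratio of 13.4 with an exact 95% counting interval of 3.50 to 114. That interval leaves out the spread between tumours, and VTL-33 lay below VTL-19. In the edgeR fit the log2 difference of Tal1 was 3.64 (SE 1.81, adjusted p = 0.449). Ldb1, the scaffold of the complex, had 296, 218 and 229 CPM, against 249 and 348 CPM (log2 −0.27, SE 0.20, adjusted p = 0.617). The T-cell GATA factor Gata3 had 46.6, 149 and 155 CPM, against 203 and 155 CPM (log2 −0.62, SE 0.46, adjusted p = 0.610), and the E protein Tcf3 had 296, 257 and 277 CPM, against 371 and 310 CPM (log2 −0.30, SE 0.14, adjusted p = 0.410). Ssbp2, which stabilises Ldb1, had 81.6, 48.0 and 47.6 CPM, against 15.9 and 40.0 CPM (log2 1.08, SE 0.44, adjusted p = 0.365), and Lmo4, a LIM-only relative, overlapped between the groups.

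Progenitor genes had the lowest median of the lists examined. The counts without overlap that follow for each list stand beside 14.4% higher and 13.2% lower over all genes tested, of which 53.1% had a positive difference. Among 16 genes of immature thymocytes and progenitors, 0 passed the test, 5 (31.2%) were positive, and the median log2 difference was −1.49. Without overlap, 6 (37.5%) were lower and 1, the myeloid and progenitor factor Spi1, was higher. The genes of this list given with values below are all from its lower side. Hhex, a homeobox target of Lmo2, had 3.13, 0.478 and 0.819 CPM in the independent tumours, against 64.3 and 38.4 CPM in the dependent tumours (log2 −5.13, SE 0.82, adjusted p = 0.0664). Erg, an ETS factor of stem cells, had 2.93, 0.0434 and 0.216 CPM, against 60.9 and 57.5 CPM (log2 −5.82, SE 1.27, adjusted p = 0.138). Cpa3, a protease of mast cells and early progenitors, had 1.04, 15.0 and 4.35 CPM, against 230 and 535 CPM (log2 −5.81, SE 1.07, adjusted p = 0.0950). The surface protein Cd93 had 6.21, 51.8 and 1.21 CPM, against 428 and 310 CPM (log2 −4.22, SE 1.30, adjusted p = 0.246). Il2ra, the CD25 chain that marks cells before the pre-T-cell receptor checkpoint, was graded among the independent tumours, at 462, 140 and 1.94 CPM, against 1284 and 1572 CPM (log2 −2.82, SE 1.42, adjusted p = 0.454). Examples named from this and the following lists did not pass unless so stated, and were chosen after their values had been seen.

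**Figure D3:**
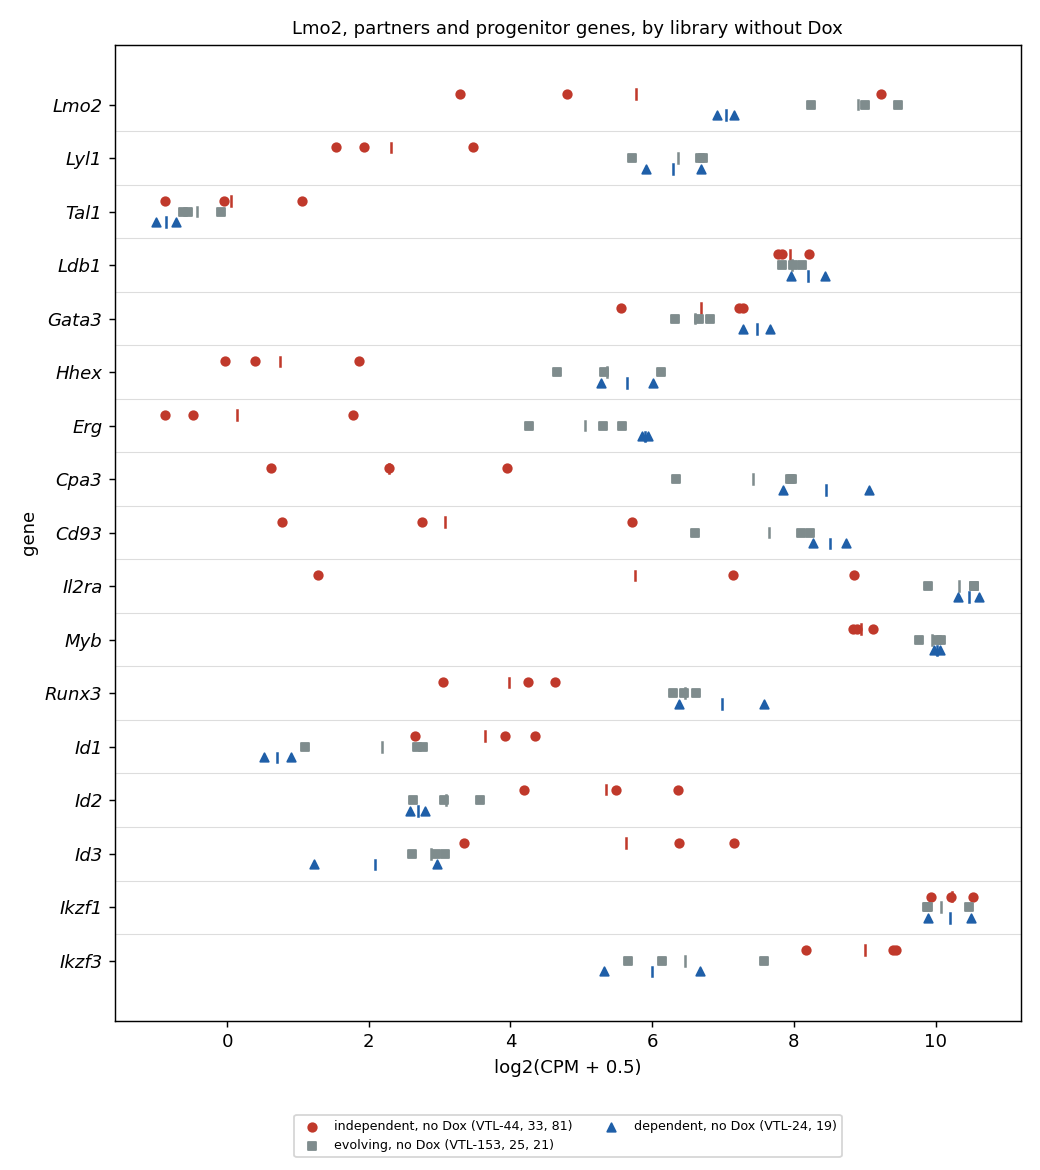
Levels of Lmo2, its partners, progenitor genes, T-lineage factors, Id genes, Ikzf1 and Ikzf3 as log2(CPM + 0.5) in the 8 libraries without Dox, with symbols as circles for independent, squares for evolving and triangles for dependent tumours and a bar at each mean. Lmo2 spans the axis in the independent tumours, at 9.28 to 600 CPM, whereas Lyl1, Hhex, Erg and Cpa3 lie to the left in all 3.

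Genes of the later CD4+CD8+ thymocyte stage were near the shares over all genes in the counts without overlap, but their median was higher. Of 15 tested, 0 passed, 10 (66.7%) were positive, and 3 (20%) were higher and 2 (13.3%) lower without overlap. The median log2 difference was 0.98, beside 0.03 for all genes tested. Rag2, which cuts receptor genes for rearrangement, had 22.5, 77.1 and 4.14 CPM in the independent tumours, against 0 and 2.89 CPM in the dependent tumours (log2 4.59, SE 1.78, adjusted p = 0.344). The chromatin organiser Satb1 had a log2 difference of 0.82 (SE 0.41, adjusted p = 0.456). Arpp21 and Aqp11, of the same list, had values of −0.58 (SE 0.23, adjusted p = 0.349) and −1.61 (SE 0.62, adjusted p = 0.341) on that scale.

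Among T-lineage transcription factors more genes were lower than higher. Of 15 tested, 0 passed, 5 (33.3%) were lower and 2 (13.3%) higher without overlap, with a median of −0.33. Myb, needed by thymocytes and a driver of T-cell leukaemia, had 474, 557 and 455 CPM in the independent tumours, against 1005 and 1066 CPM in the dependent tumours (log2 −1.06, SE 0.16, adjusted p = 0.0610). Runx3, which sets the CD8 fate, had 24.3, 18.5 and 7.80 CPM, against 191 and 82.9 CPM (log2 −3.02, SE 0.50, adjusted p = 0.0742). The SRY-box factors Sox4 and Sox13 had log2 differences of −0.73 (SE 0.26, adjusted p = 0.298) and −2.04 (SE 0.73, adjusted p = 0.302).

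The Id genes, whose proteins trap E proteins off DNA, were all higher in the independent tumours without overlap, although none of them passed. Id1 had 14.6, 19.9 and 5.78 CPM, against 0.935 and 1.37 CPM in the dependent tumours (log2 3.54, SE 0.82, adjusted p = 0.153). Id2 had 82.2, 44.6 and 17.8 CPM, against 5.47 and 6.46 CPM (log2 3.01, SE 0.66, adjusted p = 0.138). Id3, which pre-T-cell and T-cell receptor signals induce, had 9.68, 82.8 and 142 CPM, against 7.29 and 1.84 CPM (log2 4.09, SE 1.16, adjusted p = 0.208). Within the E protein and Id list of 6 tested genes, 0 passed, 3 were higher and 1 lower without overlap.

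The Ikaros family was split. Of its 5 genes, 0 passed, 1 was higher and 1 lower without overlap, and the median was 0.03. Ikzf1, which encodes Ikaros, a lymphoid factor lost in some T-cell leukaemias, had 979, 1472 and 1191 CPM in the independent tumours, against 1450 and 953 CPM in the dependent tumours (log2 0.02, SE 0.29, adjusted p = 0.988), and its sign turned without VTL-33 and without VTL-19. Ikzf3, which encodes Aiolos, had 289, 676 and 697 CPM, against 102 and 39.6 CPM (log2 2.97, SE 0.77, adjusted p = 0.181). Helios, encoded by Ikzf2, had 57.4, 252 and 139 CPM, against 112 and 181 CPM (log2 0.03, SE 0.54, adjusted p = 0.988), a sign that also depended on the tool. Ikzf4 had 0.546, 4.47 and 7.24 CPM, against 3.60 and 1.42 CPM, and Ikzf5 had 39.3, 39.1 and 37.8 CPM, against 42.9 and 47.6 CPM.

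Cytokine receptor genes and their signal carriers went in both directions. Of 21 tested, 0 passed, 6 were lower and 4 higher without overlap, with a median of −0.26. The STAT factors that carry cytokine signals to the nucleus lay lower: Stat5a had 165, 223 and 174 CPM in the independent tumours, against 521 and 385 CPM in the dependent tumours (log2 −1.27, SE 0.21, adjusted p = 0.0684). Stat3 had a log2 difference of −0.91 (SE 0.16, adjusted p = 0.0782) and Stat5b one of −0.73 (SE 0.20, adjusted p = 0.195). The shared receptor chain of interleukins 2 and 15, Il2rb, lay higher, at 9.63, 36.2 and 22.2 CPM, against 0 and 0.368 CPM (log2 6.94, SE 1.84, adjusted p = 0.184).

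Receptors and signalling of the T-cell receptor were near the background. Of 24 signalling genes, 0 passed, 4 were higher and 2 lower without overlap, and the median was 0.13. The kinase Fyn had a log2 difference of 0.82 (SE 0.28, adjusted p = 0.292), and Prkcq, the kinase that activates the Malt1 complex, one of −0.53 (SE 0.14, adjusted p = 0.189). Of 15 genes that receptor signals induce, 0 passed, 3 were lower and 1 higher. Nr4a1, an immediate receptor target, had a log2 difference of 1.32 (SE 0.42, adjusted p = 0.254), and the phosphatase Dusp5 one of −0.97 (SE 0.23, adjusted p = 0.161).

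Costimulatory and inhibitory receptors included 6 of 17 genes (35.3%) higher and 2 (11.8%) lower without overlap, 0 called, and a median of 0.92. The costimulator Icos had 2.38, 10.4 and 4.35 CPM in the independent tumours, against 0.187 and 0.578 CPM in the dependent tumours (log2 3.89, SE 1.16, adjusted p = 0.231). Lag3, an inhibitory receptor for MHC class II, had 9.43, 6.56 and 1.94 CPM, against 0.281 and 0.893 CPM (log2 3.34, SE 0.91, adjusted p = 0.193). Cd27 had 179, 150 and 199 CPM, against 379 and 294 CPM (log2 −0.93, SE 0.22, adjusted p = 0.153), and Cd200 had a log2 difference of −1.90 (SE 0.37, adjusted p = 0.111). Among 16 homing and chemokine receptors, 0 were called, 4 were higher and 2 lower without overlap. Ccr4, a chemokine receptor of skin-homing and some leukaemic T cells, had a log2 difference of 2.05 (SE 0.45, adjusted p = 0.138).

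No cell-cycle gene was called. Of 22 proliferation genes, 0 passed, 18 (81.8%) were positive and 8 (36.4%) were higher without overlap, with Kif11 lower, and the median was 0.31. Cdc20, which activates the anaphase-promoting complex, had 260, 203 and 181 CPM in the independent tumours, against 131 and 88.0 CPM in the dependent tumours (log2 0.97, SE 0.26, adjusted p = 0.193). The mitotic genes Birc5 and Cenpa had log2 differences of 0.49 (SE 0.15, adjusted p = 0.237) and 0.59 (SE 0.20, adjusted p = 0.285). Of 13 cyclins and kinases, 0 passed, 5 were higher and 1 lower. Ccnd1, cyclin D1, had 69.0, 7.17 and 80.2 CPM, against 0.561 and 1.26 CPM (log2 5.84, SE 1.85, adjusted p = 0.255).

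Of 9 inhibitors of the cycle tested, 0 passed, 3 (33.3%) were lower without overlap and 0 higher. Cdkn2c, which encodes the CDK4/6 inhibitor p18, had 79.2, 77.5 and 72.6 CPM in the independent tumours, against 130 and 138 CPM in the dependent tumours (log2 −0.81, SE 0.15, adjusted p = 0.102). Cdkn1b, which encodes p27, had 88.0, 74.1 and 83.9 CPM, against 103 and 91.1 CPM, and the retinoblastoma relative Rbl1 had 98.6, 156 and 151 CPM, against 192 and 211 CPM. Cdkn2a, the source of p16 and p19 Arf, overlapped, at 19.0, 3.21 and 4.53 CPM, against 1.26 and 5.41 CPM (log2 1.42, SE 0.89, adjusted p = 0.540). The evolving tumours without Dox had 190, 182 and 117 CPM of Cdkn2a, above all 5 libraries compared.

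Of 22 tumour suppressors of T-cell leukaemia, 0 passed, 4 were lower and 1 higher without overlap, and the median was −0.02. Phf6 had 86.3, 131 and 118 CPM in the independent tumours, against 182 and 180 CPM in the dependent tumours (log2 −0.70, SE 0.20, adjusted p = 0.208). Kdm6a, an X-linked demethylase that escapes X inactivation, had 139, 71.5 and 60.1 CPM, against 155 and 160 CPM, with its lowest values in the tumours with little Xist. Ezh2, the Polycomb methyltransferase, had 363, 390 and 402 CPM, against 502 and 460 CPM, the phosphatase gene Ptpn2 had 60.4, 73.6 and 73.0 CPM, against 92.2 and 86.0 CPM, and the methyltransferase gene Dnmt3a had 259, 251 and 244 CPM, against 218 and 232 CPM. Irs1, an adaptor between growth factor receptors and PI3K, had 0.348, 6.86 and 7.11 CPM, against 0 counts in both dependent tumours. With a floor of 3 counts over the group it was at least 67.0-fold higher, with an adjusted p of 0.175.

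Among 18 Polycomb and DNA methylation genes, 0 passed, 4 were lower and 2 higher without overlap. Only 4 (22.2%) were positive, beside 53.1% of all genes, and the median was −0.15. The example given is from the higher side. Tet2, which oxidises methylcytosine, had 19.5, 11.6 and 3.41 CPM in the independent tumours, against 2.29 and 1.73 CPM in the dependent tumours (log2 2.51, SE 0.71, adjusted p = 0.208). Of 14 Notch receptor and target genes, 0 passed, 1 was higher and 1 lower. Heyl, a Notch target, had a log2 difference of 1.49 (SE 0.50, adjusted p = 0.281).

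Npc1 was the 1 called gene among 20 of cholesterol synthesis and transport, where 9 genes were lower without overlap (45.0% of the list, beside 13.2% of genes tested) and 2 higher. The median was −0.48 and 14 of the 20 were negative. Dhcr7, the last step of synthesis, had 54.2, 42.4 and 47.6 CPM in the independent tumours, against 70.1 and 88.6 CPM in the dependent tumours (log2 −0.72, SE 0.18, adjusted p = 0.175). Abcg1, which exports cholesterol from cells, lay on the other side, at 62.2, 42.4 and 55.0 CPM, against 4.58 and 13.0 CPM (log2 2.60, SE 0.66, adjusted p = 0.176).

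The interferon response list of 30 genes had 0 called, 10 (33.3%) lower and 5 (16.7%) higher without overlap, with a median of −0.26. Oasl1, an antiviral sensor-like protein, had 5.16, 4.56 and 2.16 CPM in the independent tumours, against 26.1 and 17.9 CPM in the dependent tumours (log2 −2.47, SE 0.47, adjusted p = 0.102), and Irf9, which brings STAT dimers to interferon genes, had 44.9, 52.0 and 38.0 CPM, against 77.5 and 78.2 CPM (log2 −0.79, SE 0.26, adjusted p = 0.271). Ifi202b, whose level is known to differ between mouse strains, did not pass. It had 446 counts over the independent tumours and 1 over the dependent ones, a ratio of 272 with an exact 95% counting interval of 48.5 to 10754. That interval leaves out the spread between tumours, and the log2 difference of Ifi202b ran from 6.70 to 10.2 with 1 tumour left out. The evolving VTL-25 had 2.28 CPM of Ifi202b, against 0.1 and 0 CPM in VTL-153 and VTL-21. Further lists, each with 0 called, were PI3K and AKT signalling (3 of 23 higher and 3 lower without overlap), glycolysis (5 and 2 of 17), ribosome biogenesis (0 and 0 of 22), p53 targets (3 and 2 of 16), the BCL2 family (4 and 1 of 12), MHC class I (0 and 3 of 15), mature T cells (2 and 2 of 16), T-ALL transcription factors (1 and 3 of 9) and the integrated stress response (2 and 0 of 16).

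**Figure D4:**
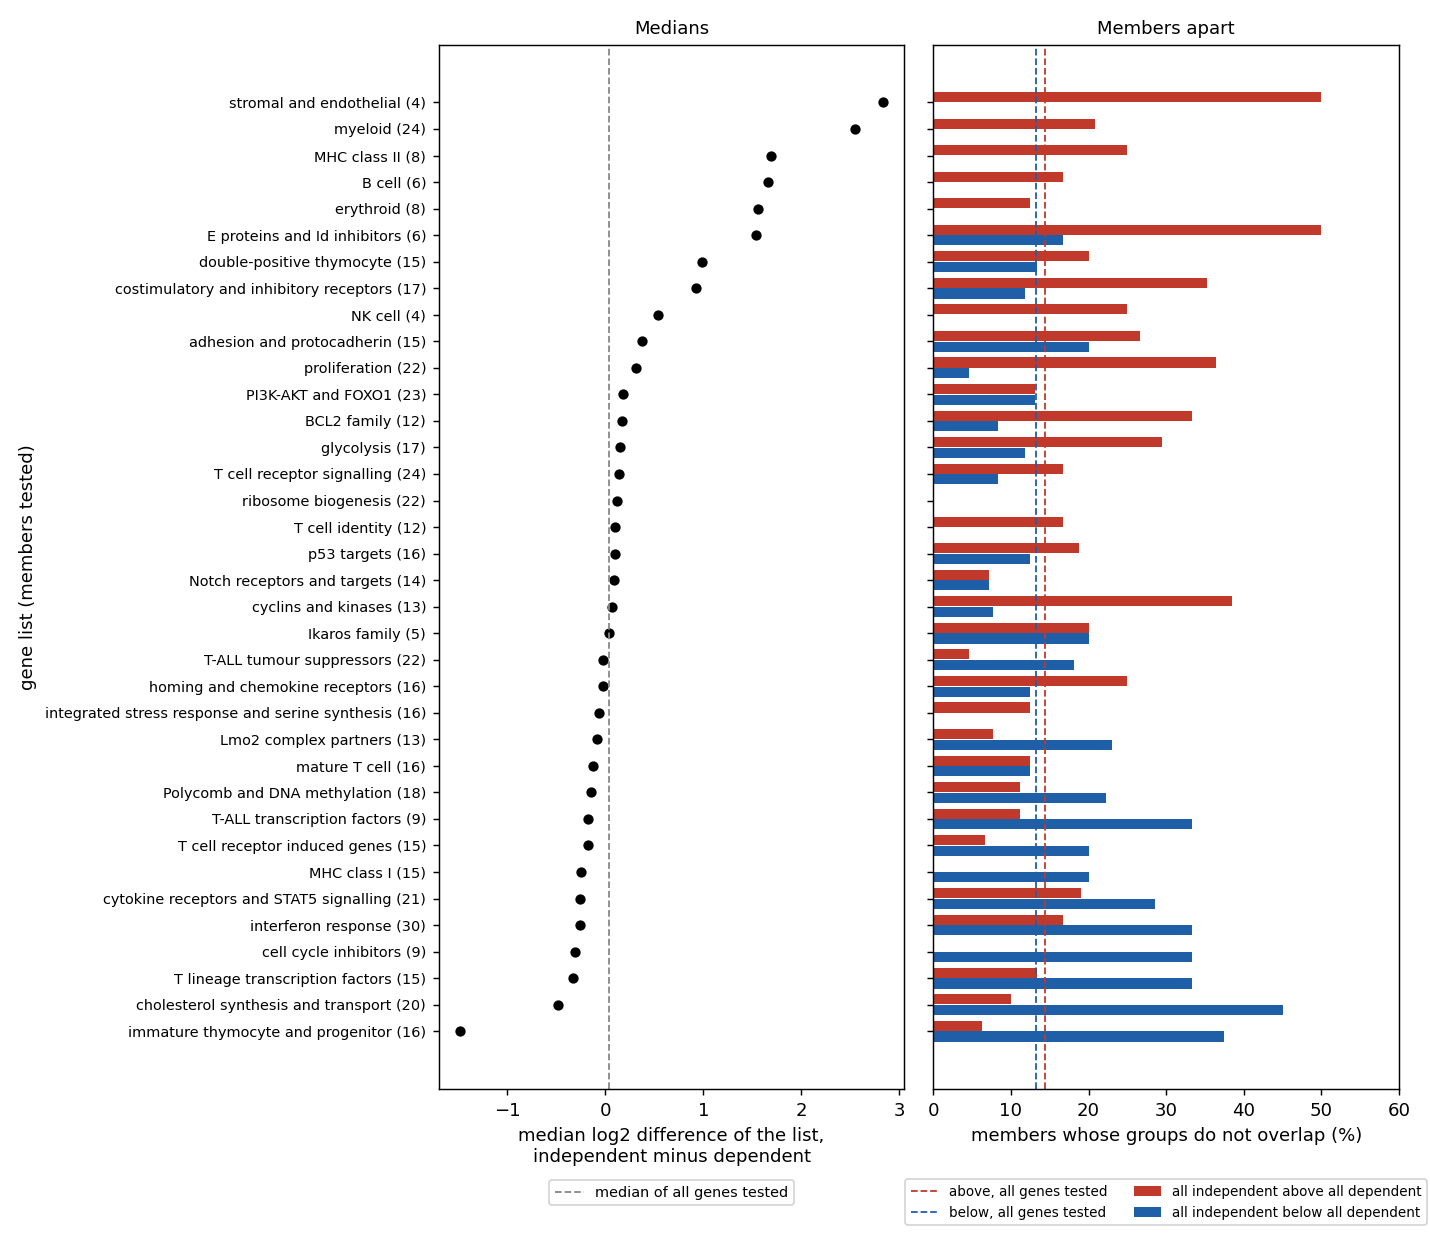
Left, the median log2 difference (independent minus dependent) of each gene list with at least 3 members tested, the sex-linked genes left out, with a dashed line at the median of all genes tested, 0.03. Right, the percentage of each list whose members were higher (red) or lower (blue) in all independent than in all dependent tumours, with dashed lines at 14.4% and 13.2% for all genes tested. Progenitor genes (−1.49) and cholesterol genes (−0.48) stand at the bottom, and stromal (2.84) and myeloid (2.55) markers, of which 0 were called, at the top.

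Markers of other cell types were present in the libraries, with 0 called in each list, and their part in the results above was not tested. All 24 myeloid markers had positive log2 differences, 5 of them without overlap and 0 called, and their summed level was 2340, 122 and 326 CPM in the independent tumours, against 61.1 and 158 CPM in the dependent tumours. VTL-44 held most of it, with the neutrophil gene S100a8 at 477 CPM, and VTL-33 lay between the dependent tumours. VTL-81 also lay above both dependent tumours in this sum, and any link between the sum and the called genes was not tested. MHC class II genes, 8 of 8 positive, summed to 441, 62.3 and 170 CPM, against 48.2 and 95.3 CPM. The B-cell list, of which 6 of 18 genes were tested and 0 called, summed to 125, 564 and 790 CPM, against 375 and 78.2 CPM, and Ighm made up 67.4, 497 and 779 CPM of it, against 176 and 53.8 CPM. The NK list, with 4 of 12 tested and 0 called, summed to 79.6, 861 and 805 CPM, against 348 and 195 CPM, nearly all of it Gzma, which activated T cells also make. Erythroid genes summed to 40.1, 1.78 and 6.25 CPM, against 0.14 and 11.9 CPM, and of the megakaryocyte genes 1 was tested, at 0.733 to 3.67 CPM, against 0.935 and 0.473 CPM.

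Of 4 stromal and endothelial genes tested, 1 of which is not reported here, 0 were called, 3 were positive and 1 negative. Pdgfrb and Col1a2 did not overlap. Pdgfrb, a growth factor receptor of mesenchymal cells, had 228, 116 and 377 CPM in the independent tumours, against 0 and 9.62 CPM in the dependent tumours (log2 5.65, SE 1.59, adjusted p = 0.208), and the collagen gene Col1a2 had 10.1, 19.5 and 117 CPM, against 2.52 and 0.0526 CPM (log2 5.23, SE 1.72, adjusted p = 0.266). The other collagen measured, Col1a1, had 25.5, 2.61 and 15.4 CPM, against 1.64 and 19.8 CPM. The 12 T-cell identity genes summed to 5090, 7378 and 7601 CPM, against 6514 and 5848 CPM, with 0 called.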

How the data were processed

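Libraries were prepared with NEBNext Ultra II from sorted tumour-cell RNA of integrity above 8, per the labels' protocols. STAR 2.5.2b, mm10 and featureCounts are named in the submitters' processing notes; annotation, strand setting and filter are not given in the sources used here. The authors deposited raw counts per gene, all whole numbers, and a library's total lay between 18214415 and 24048281. Every 1 of the 12421 listed genes reaches 1 CPM in 2 or more libraries, and genes outside the list were not analysed here. A further 42 per-sample columns on other scales were not used. The authors' deposited table also holds log2 differences, which were read only for the comparison given at the end. Positions come from GENCODE M21, in which 12379 identifiers were found.

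Counts of the 8 libraries without Dox were fitted with edgeR 4.0.16 (R 4.3.3; TMM factors, filterByExpr with a minimum count of 10, robust quasi-likelihood), with class as the only term, and independent was tested against dependent with Benjamini-Hochberg adjustment and a threshold of 0.05. The evolving tumours share in the estimate of spread, since 3 and 2 libraries alone give little. CPM are scaled by TMM factors. A group with 0 counts was given a floor of 3 counts over the group, and one with 1 to 3 counts an exact 95% interval; both cover counting error only. The p-values rest on the spread between libraries of the same class, the evolving ones included. The evolving VTL-153 and VTL-25 counted there as separate tumours, although they correlated at 0.973, and whether they are separate was not tested. The count of called genes was 2 without VTL-153 and 5 without VTL-25. Tests were tested on simulated counts. Dependent and independent tumours share no tumour number.

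Named genes were Lmo2, Ikzf1, up to 12 called genes in each direction by size plus the 5 most abundant, with a mean log2 CPM of at least 2 over the 5 libraries and no overlap, without receptor segments, predicted genes or sex-linked genes; up to 6 called members of each list; and the 5 higher genes nearest the threshold. That rule takes Arhgef3, P2rx7, Abcb10, Npc1, Ube2w and Pcdh7; the other 6 called genes, the Armcx family and the list examples were named after their values were seen. The tumours compared, the gene lists and the tests were chosen with earlier results of these data known. Lists are described by counts and medians, with no test, and some members are not reported here. Alternatives were RLE factors, DESeq2 1.42.0, limma 3.58.1 voom, other filters, other sets of libraries and each tumour left out in turn; leaving out the evolving VTL-25 or VTL-21, also from the readings with Dox, was added after seeing the data.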

Additional observations from a re-analysis of the deposited data

How the results depend on the processing

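Against 12 called genes (2 higher, 10 lower), the count was 12 with RLE factors, without the robust option, with no filter, with a minimum count of 50 and without receptor segments. It was 791 (361 higher, 430 lower) by DESeq2, 0 by limma voom (1396 at an unadjusted p under 0.05) and 2 (1 higher, 1 lower) with the 5 libraries alone, 1 of them among the 12. Leaving out 1 tumour gave 2 to 73 calls (0 to 19 higher, 2 to 54 lower): 73 without VTL-44, 23 without VTL-81, 5 without the evolving VTL-25 and 2 without the evolving VTL-153. The fit of all 14 libraries by limma voom with a replicate block for tumour called 27 (4 higher, 23 lower), of which 6 were among the 12. That replicate block pairs libraries with and without Dox. No paired analysis was possible between independent and dependent tumours because they share no tumour number. The cause of these changes was not tested. The sign of all 12 held under every alternative. Armcx4, Armcx1, Sstr2, Foxb1 and Pcdh7 passed with any 1 of the 3 independent tumours left out. The other called genes did not pass without VTL-33. Their adjusted p by edgeR was then 0.0675 for Fat4, 0.0707 for Arhgef3, 0.0764 for Abcb10 and 0.102 for Npc1. It was 0.120 for 1500035N22Rik, 0.129 for Ube2w and 0.131 for P2rx7. Leaving out a dependent tumour leaves 1 in that group, so only log2 differences are given there. Without VTL-24 and without VTL-19 they were −8.56 and −7.01 for Fat4, 1.37 and 1.27 for Arhgef3, and −2.67 and −2.90 for Abcb10. For Npc1 they were −1.45 and −1.41, and for 1500035N22Rik −3.61 and −3.49. For Ube2w they were −1.42 and −1.39, and for P2rx7 −2.29 and −3.50. The log2 difference of Lmo2 turned to −1.25 by limma voom and −1.27 with the replicate block, and it ran from −2.84 (without VTL-33) to 1.26 with 1 tumour left out. Ikzf1 ran from −0.26 to 0.35, Ikzf2 from −0.58 to 0.42 and Armcx5 from −0.13 to 0.11 with 1 tumour left out, and Ikzf2 was −0.17 by limma voom and with the replicate block. Where a dependent tumour was left out, the lone one was assumed to vary like the others. With 2 dependent tumours, small differences were not detectable.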

Other observations

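Some genes set 1 independent tumour apart from all 7 other libraries without Dox by at least 8-fold, at a level of at least 50 CPM on the higher side. In VTL-44, Gfra1, a receptor of glial cell line-derived growth factor, stood at 0.248 CPM, against 209 to 955 CPM in the other 7. With Dox, VTL-44 had 0.146 CPM of Gfra1. In VTL-44 the cystine transporter Slc7a11 stood at 206 CPM, against 2.79 to 17.4 CPM, beside neutrophil genes such as Lcn2 and Cd177. In VTL-81, Il2ra stood at 1.94 CPM, against 140 to 1572 CPM, the galectin gene Lgals1 at 5.69 CPM, against 92.3 to 559 CPM, and Nsmaf at 4.01 CPM, against 125 to 194 CPM. In VTL-33 the RNA-binding protein gene Igf2bp3 stood at 61.1 CPM, against 0 to 4.48 CPM. VTL-33 had no gene of this kind on the lower side. These genes were picked by size of difference and have no test.

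The median log2 difference of the genes of a chromosome was within 0.1 of 0 for every chromosome except 15 and 19. On chromosome 15, over 366 genes, the median against the mean of the dependent tumours was 0.49 in VTL-44, 0.58 in VTL-33 and 0.10 in VTL-81, and among the evolving tumours without Dox it was 0.60 in VTL-21 and 0.03 and 0.02 in VTL-153 and VTL-25. On chromosome 19, over 328 genes, the median was −0.34, −0.27 and −0.21 in the independent tumours VTL-44, VTL-33 and VTL-81, while the dependent tumours lay at −0.19 (VTL-24) and 0.19 (VTL-19) around their own mean. Without Dox, the evolving tumours lay at −0.24 (VTL-25), −0.23 (VTL-21) and −0.21 (VTL-153), so that VTL-19 stood apart from the other 7 libraries.

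The leading T-cell receptor beta variable segment was Trbv19 in VTL-44 (840 CPM), Trbv24 in VTL-33 (326 CPM) and Trbv2 in VTL-81 (1229 CPM), against Trbv2 in both dependent tumours, at 569 CPM in VTL-24 and 15.0 CPM in VTL-19. In evolving tumours it was Trbv24 in all 6 libraries except VTL-25 with Dox, where it was Trbv5.

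The authors' deposited table holds a log2 difference headed as independent without Dox. For the 12 called genes it lay a median of 0.00392 from a fit in which dependent and evolving tumours were pooled, and 0.295 from the fit against dependent tumours alone. Its sign was the same for 12 of 12 genes, whereas for Lmo2 the authors' deposited table gives −0.75, against 0.70 here. The pooled fit called 312 of 12223 genes.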
